A study of Mus musculus with 105 samples.

Results

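Described here are 9 genes that encode core subunits of Polycomb repressive complex 1 (PRC1): the chromodomain genes Cbx2, Cbx7 and Cbx8, the PCGF genes Pcgf1, Pcgf2, Pcgf6 and Bmi1, and the RING genes Ring1 and Rnf2. They were taken by symbol or by Entrez identifier from gene count tables of mouse embryonic stem cells, and all 9 were found among the 53656 genes of the larger tables and the 27179 genes of the smaller ones. PRC1 places ubiquitin on histone H2A through a RING protein, RING1 or RNF2 (also called RING1A and RING1B), which works as a pair with a PCGF protein. In canonical PRC1 the PCGF protein is PCGF2 (MEL18) or BMI1, and a CBX protein binds the H3K27me3 mark left by Polycomb repressive complex 2 (PRC2). Variant complexes carry another PCGF protein, such as PCGF1 or PCGF6, and lack the CBX proteins of canonical PRC1. CBX7 and PCGF2 are known as the usual canonical subunits of embryonic stem cells, and CBX2, CBX8 and BMI1 are better known from cells that differentiate or from adult tissues.

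The study asked how individual histone modifications act in repression at PRC2 target genes, and altered SUZ12, a core subunit of PRC2. Counts were available for 93 RNA-seq libraries in 31 groups of 3, which fall into 5 data sets that were normalised and tested separately. In the construct panel, untreated E14TG2a cells grown in serum and LIF carried a Suz12 knockout plus S12N-SUV2, its starred version (dead S12N-SUV2), S12N-SD2, its starred version (dead S12N-SD2), S12N or wild-type SUZ12 (the rescue), or carried the knockout alone, or were wild type. S12N is SUZ12 without its VEFS domain, the stretch through which SUZ12 binds the catalytic part of PRC2, while what SUV2 and SD2 stand for is left unstated in the labels. The HP1 set held E14Tg2a cells with a Suz12 knockout plus S12N fused to the HP1a chromodomain (S12N-HP1), S12N or full-length SUZ12, the knockout alone, and wild type. In both RBBP5 sets every E14TG2a line had an FKBP tag on RBBP5, a subunit of histone H3K4 methyltransferases, so that dTAG13 directs it to degradation. RS lines added a Suz12 knockout to this RBBP5-FKBP background (the R lines), and the fusion lines added S12N-SUV2 or S12N-SD2 to RS. The headings and titles of both sets give RS the same line designation, and R is the tagged parent in both, so the 2 sets do not stand for separate R and RS lines. Each RBBP5 line received dTAG13 or DMSO for 24 h, at 500 nM dTAG13 where a dose was given (the SD2 set). The degron line, labelled TCF, was wild type with SUZ12-mAID and OsTIR and received DMSO for 48 h or 50 µM auxin for 2, 4, 8, 24 or 48 h, with no untagged line under auxin. Each construct was carried by a line of its own, so that a construct and its line cannot be told apart.

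Assigned counts per library ran between 5476658 and 29967549. Column headings of the panel are shorthand, and their match to the groups was inferred from wording. Suz12 RNA averaged 32.0 to 61.2 CPM (normalised read counts relative to the size of the library) in the knockout groups of the 4 sets and 294 to 384 CPM in the groups they are compared with. The summed level of 7 stem cell markers was at least 3620 CPM in every library. A list of 9 primitive endoderm genes such as Gata4, Gata6 and Sox17 moved with SUZ12: 9 of 9 were higher in all 4 knockout comparisons, with sums of 761 to 1380 CPM in panel knockout cells against 130 to 170 CPM in wild type, 975 to 1000 against 278 to 288 CPM in the HP1 set, 1080 to 1180 CPM in RS against 86.2 to 97.4 CPM in R of the SUV2 set, and 4270 to 4480 CPM in RS against 121 to 134 CPM in R of the SD2 set. Of 4 trophoblast markers, 2 to 4 were higher in each knockout comparison, with sums of 123 to 138 CPM in RS against 10.2 to 12.5 CPM in R of the SUV2 set, 164 to 175 CPM in RS against 9.74 to 11.4 CPM in R of the SD2 set, 37.7 to 71.4 CPM in knockout against 18.7 to 25.2 CPM in wild type of the panel, and 79.9 to 88 CPM in knockout against 38.5 to 43.4 CPM in wild type of the HP1 set. All fibroblast markers that could be tested (3 or 4 of 5) were higher in each as well, with sums of 18.5 to 31.1 CPM in knockout groups and 2.77 to 8.84 CPM in the groups they are compared with, and 1 mesoderm marker was higher in each. Stem cell and neural markers moved in both directions. The part of these lists in the changes of the PRC1 genes was not tested. In RNA from whole cultures, fewer cells that express a gene and less RNA per cell cannot be told apart. Replicates of a group correlated at 0.981 to 0.998 (Pearson's r of log2 CPM), except that replicate 3 of the 24 h auxin group correlated with replicates 1 and 2 at 0.948 and 0.927. Replicates 1 and 2 of that group also had the lowest normalisation factors (0.845 and 0.739), and replicate 3 of the dTAG13-treated R line in the SD2 set stood at 0.871.

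Bmi1 and Cbx8 were the members with the largest changes, and their promoters are shown with that of Pcgf2, the canonical PCGF gene that moved the other way. Each stretch holds the 250 bases before and the 50 bases after the RefSeq start on GRCm38.p6, with CG dinucleotides in capitals. The Bmi1 stretch is chr2:18676768-18677067 on the plus strand, the Cbx8 stretch is chr11:119040864-119041163 on the minus strand, and the Pcgf2 stretch is chr11:97699599-97699898 on the minus strand.
Bmi1: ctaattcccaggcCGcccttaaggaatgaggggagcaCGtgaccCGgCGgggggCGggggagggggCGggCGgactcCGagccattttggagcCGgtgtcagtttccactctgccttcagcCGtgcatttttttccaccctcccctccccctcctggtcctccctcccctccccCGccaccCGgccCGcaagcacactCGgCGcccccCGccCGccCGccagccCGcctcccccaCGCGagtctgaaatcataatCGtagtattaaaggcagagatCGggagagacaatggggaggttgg
Cbx8: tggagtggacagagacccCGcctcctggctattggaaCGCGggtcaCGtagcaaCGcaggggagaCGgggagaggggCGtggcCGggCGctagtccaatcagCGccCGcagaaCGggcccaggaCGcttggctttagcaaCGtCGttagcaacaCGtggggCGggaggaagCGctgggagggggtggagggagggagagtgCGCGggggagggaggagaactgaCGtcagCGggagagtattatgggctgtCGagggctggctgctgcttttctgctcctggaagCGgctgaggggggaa
Pcgf2: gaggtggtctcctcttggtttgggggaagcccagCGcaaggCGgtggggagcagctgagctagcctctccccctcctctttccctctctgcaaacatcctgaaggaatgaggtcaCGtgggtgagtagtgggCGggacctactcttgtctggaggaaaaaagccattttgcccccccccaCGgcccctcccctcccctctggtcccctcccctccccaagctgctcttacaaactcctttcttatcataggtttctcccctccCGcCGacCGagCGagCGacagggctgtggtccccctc
The Bmi1 stretch held 23 CG dinucleotides and the Cbx8 stretch 24, numbers reached by 21.5% and 20% of the 32851 promoters in the table, whose median was 7. The Pcgf2 stretch held 10, a number reached by 43.5%. The Pcgf2 and Cbx7 stretches lie inside these genes as annotated in GENCODE M21, whose starts are further upstream. CG dinucleotides at those starts were not counted. The promoters of Cbx7, Rnf2 and Ring1 held 33, 30 and 37, those of genes that changed little included. Of the 9 members, 7 had a promoter in the table. Cbx2 (chr11:119022962-119031270, plus strand) and Cbx8 (chr11:119036305-119040969, minus strand) lie end to end, 5034 bases apart. Bmi1 occupies chr2:18677018-18686629 on the plus strand and Pcgf2 chr11:97688823-97700497 on the minus strand. No exon of a member overlaps an exon of another gene in the annotation used.

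In wild-type panel cells the members spanned a wide range of levels, given here per kilobase of exon so that genes can be compared. Rnf2 (74.5 ± 2.44 CPM per kb, SD, n = 3) and Cbx7 (67.2 ± 3.36) stood highest. Pcgf6 (42.6 ± 2.15) and Pcgf2 (38.2 ± 3.89) followed and lay within each other's spread, as did Cbx2 (9.82 ± 0.667) and Pcgf1 (8.37 ± 1.06). Below them came Ring1 (4.29 ± 0.615), Bmi1 (2.26 ± 0.561) and Cbx8 (0.205 ± 0.0503). Rnf2 RNA thus exceeded that of its paralog Ring1, and Pcgf2 RNA that of Bmi1, by far more than the spread between replicates. In panel knockout cells Bmi1 (11.9 ± 0.313 CPM per kb) had passed Pcgf1 (7.36 ± 1.32) and Ring1 (4.69 ± 0.816), and the other members kept their order. The HP1 set gave nearly the same order in wild type, with Cbx7 (71.9 ± 3.34 CPM per kb) and Rnf2 (66.2 ± 1.56) exchanged, Pcgf2 (45.1 ± 0.28) above Pcgf6 (37.9 ± 1.38), and Bmi1 and Ring1 level at 3.1 CPM per kb. The DMSO-treated degron line differed: Pcgf1 stood at 31 ± 2.76 CPM per kb, beside Cbx7 at 33.1 ± 1.01, and Bmi1 (7.76 ± 0.137) and Cbx8 (1.07 ± 0.136) stood above their wild-type levels of the other sets, which were normalised separately.

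Loss of SUZ12 was tested in 4 comparisons of a knockout with its matching line, of which the 2 in the RBBP5 sets share the RS designation and are not separate knockout lines. Cbx8 and Bmi1 rose in all 4, to between 4.38 and 20.6 times the level of the matching line, and Cbx2 rose in 3. Cbx7 and Pcgf2, the canonical subunits typical of stem cells, fell in all 4, by far smaller amounts. Of the 9 members, 7 passed an adjusted p of 0.05 in the panel, where 47.1% of all 16230 genes tested did, 7 in the HP1 set (41.8% of all genes), 7 in the RBBP5 SUV2 set (71.8%) and 6 in the RBBP5 SD2 set (59%). With backgrounds this high, what follows rests on sizes and directions and not on the number of members called.

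Cbx8, a chromodomain subunit with little RNA in stem cells, had 5.39, 2.91 and 3.60 CPM in panel knockout cells, against 0.663, 0.598 and 0.937 CPM in wild-type cells. It had 4.36, 6.68 and 3.41 CPM in HP1-set knockout cells, against 1.05, 0.874 and 0.636 CPM in wild type. All knockout libraries lay above all wild-type ones in both sets. In the SUV2 set it had 7.30, 8.4 and 6.62 CPM in RS and 0.599, 0.206 and 0.270 CPM in R under DMSO, and in the SD2 set it had 6.42, 6.21 and 7.13 CPM in RS and 1.12, 0.729 and 1.01 CPM in R. The log2 fold changes were 2.46 in the panel (adjusted p = 7.32e-06), 2.51 in the HP1 set (1.06e-07), 4.37 in the SUV2 set (1.28e-18) and 2.79 ± 0.17 in the SD2 set (SE; 1.94e-10). In the first 3 of these the lower group held 20, 27 and 21 counts in all, and exact counting intervals of 95% ran between 1.77 and 3.22, 2.04 and 3.27, and 3.74 and 5.07, covering counting error only.

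Cbx2, a chromodomain subunit known to compact chromatin, had 69.2, 57.2 and 55.0 CPM in panel knockout cells and 40.1, 37.1 and 35.0 CPM in wild-type cells, groups that do not overlap. Its log2 fold change was 0.69 ± 0.10 there (adjusted p = 1.59e-06), 0.67 ± 0.08 in the HP1 set (6.82e-10) and 0.92 ± 0.04 in the SUV2 set (6.22e-19). In the SD2 set Cbx2 had 53.4, 55.0 and 52.7 CPM in RS and 51.8, 41.5 and 47.4 CPM in R, and the log2 difference of 0.20 ± 0.12 missed the threshold (0.165, 95% interval -0.05 to 0.44). Cbx7, the chief stem cell CBX gene, had 179, 199 and 196 CPM in panel knockout cells and 216, 233 and 237 CPM in wild type. It fell in the panel (log2 fold change -0.26 ± 0.06, adjusted p = 0.000838), the SUV2 set (-0.43 ± 0.03, 4.48e-15), the SD2 set (-0.29 ± 0.08, 0.00461) and the HP1 set (-0.17 ± 0.05, 0.00593), where the call was lost without wild-type replicate 2 (-0.14, 0.0614).

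Bmi1, one of the alternative canonical PCGF subunits, had 42.8, 44.5 and 44.9 CPM in panel knockout cells, against 5.96, 9.37 and 9.72 CPM in wild-type cells. It had 52.9, 45.5 and 52.8 CPM in HP1-set knockout cells, against 10.4, 12.5 and 11.4 CPM in wild type. Under DMSO it had 38.3, 40 and 39.7 CPM in RS and 6.34, 7.28 and 6.81 CPM in R of the SUV2 set, and 45.6, 47 and 48.0 CPM in RS and 8.99, 10.3 and 9.59 CPM in R of the SD2 set. In each of these comparisons the lowest knockout library held more than 3 times the Bmi1 of the highest library of the matching line. The log2 fold changes were alike, at 2.4 ± 0.13 (adjusted p = 6.43e-14), 2.13 ± 0.12 (1.41e-19), 2.53 ± 0.07 (1.32e-24) and 2.28 ± 0.08 (2.07e-13) in the panel, HP1, SUV2 and SD2 sets. Pcgf2, its counterpart, had 81.6, 79.7 and 80.2 CPM in panel knockout cells and 113, 116 and 95.7 CPM in wild type. It fell in each of these sets, with log2 fold changes of -0.43 ± 0.08 (9.26e-05), -0.54 ± 0.07 (4.84e-09), -0.36 ± 0.03 (3.84e-11) and -0.45 ± 0.06 (4.25e-06) in the same order.

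The variant PCGF genes moved less. Pcgf6, which defines the complex that contains MGA and L3MBTL2, averaged 77.6 ± 2.36 CPM in panel knockout cells and 91.9 ± 4.64 CPM in wild type (SD, n = 3 each). Its log2 fold change was -0.25 ± 0.07 in the panel (adjusted p = 0.00429), -0.34 ± 0.08 in the HP1 set (0.000549), -0.25 ± 0.03 in the SUV2 set (1.19e-07) and -0.09 ± 0.05 in the SD2 set, where it missed the threshold (0.158). Pcgf1, the partner of KDM2B and BCOR, fell in both RBBP5 sets, by 0.62 ± 0.09 (3.35e-07) and 0.44 ± 0.12 (0.00476) on the log2 scale. It averaged 7.27 ± 1.31 CPM in panel knockout cells and 8.27 ± 1.05 CPM in wild type, overlapping groups whose difference missed the threshold (log2 -0.18 ± 0.16, 0.386). The HP1 set likewise gave no call for Pcgf1 (-0.21 ± 0.24, 0.526).

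Of the RING genes, Rnf2, the main E3 ligase of PRC1 in these cells, had 220, 219 and 219 CPM in panel knockout cells and 253, 255 and 240 CPM in wild type. This small fall (log2 fold change -0.18 ± 0.05, adjusted p = 0.0054) was lost when genes of low count were kept in the test (-0.15, 0.115). The HP1 set gave -0.15 ± 0.05 (0.0191), which was lost without wild-type replicate 1 or 3 or knockout replicate 2 or 3 (-0.12 to -0.15, 0.0506 to 0.0948). Rnf2 missed the threshold in the SUV2 set (-0.02 ± 0.03, 0.445) and the SD2 set (0.01 ± 0.06, 0.938). Ring1 passed the threshold in the SD2 set alone, where it had 5.45, 5.66 and 4.20 CPM in RS and averaged 3.57 CPM in R (log2 fold change 0.52 ± 0.16, 0.0119). Without replicate 2 of either group it missed it (0.44 each, 0.0519 without the RS library and 0.0587 without the R library). Ring1 missed the threshold in the panel (0.12 ± 0.15, 0.557), the HP1 set (0.23 ± 0.25, 0.485) and the SUV2 set (0.23 ± 0.13, 0.108), where it passed without replicate 3 of R (0.36, 0.0233) or of RS (0.33, 0.0293). Whether Ring1 differed between sets was not tested.

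**Figure D1:**
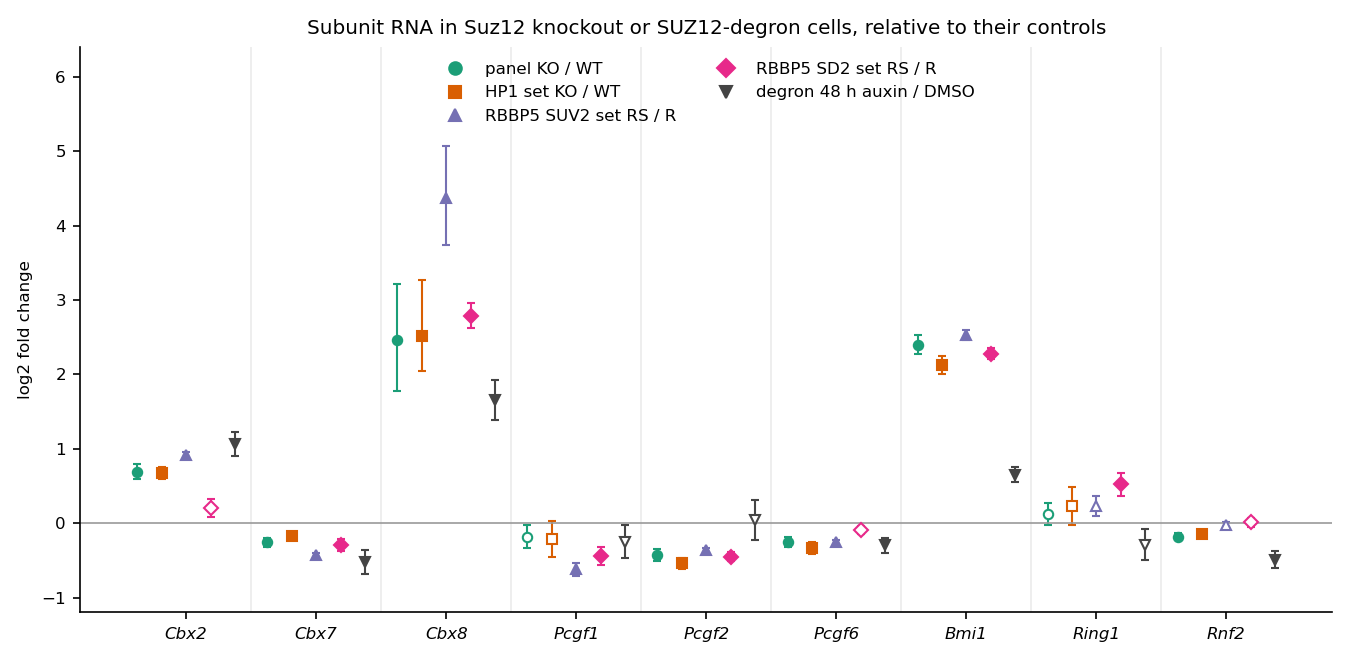
Log2 fold change of each member (vertical axis) in the 4 knockout comparisons and after 48 h of auxin in the SUZ12-degron line, relative to the matching control. Filled symbols passed an adjusted p of 0.05 and open ones did not, bars are SE except for Cbx8 in the panel, HP1 and RBBP5 SUV2 comparisons, where they are 95% counting intervals. Cbx8 and Bmi1 lie between 0.65 and 4.37 in all 5 comparisons, while Cbx7 lies between -0.17 and -0.52.

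The plot of changes on SUZ12 loss shows the members side by side in their 3 families. Among the canonical members the scarce Cbx8 and Bmi1 rose and the abundant Cbx7 fell in every comparison shown. Cbx2 rose in all but the SD2 set, where it missed the threshold. Pcgf2 fell in the knockouts but not after 48 h of auxin. The summed RNA of the PCGF family had slightly lower means in the knockouts. The 6 PCGF genes (the 4 members, Pcgf3 and Pcgf5) together came to 96.3 ± 2.14 CPM per kb in panel knockout cells and 103 ± 3.19 in wild type, to 91.7 ± 0.673 in knockout and 103 ± 0.583 in wild type of the HP1 set, to 102 ± 3.29 in RS and 108 ± 0.644 in R of the SUV2 set, and to 99.2 ± 0.271 in RS and 99.9 ± 4.06 in R of the SD2 set. The HP1 set had the widest gap, beyond its spread, and the SD2 means lay within theirs. These sums were described without a test.

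Putting SUZ12 back was measured in the panel rescue and in the full-length line of the HP1 set. Bmi1, Cbx8 and Cbx2 were lower than in the knockout in both. In the panel rescue Bmi1 and Cbx8 could not be distinguished from wild type, while in the full-length line both stayed above it. Relative to the knockout, 5 of 9 members were called in the rescue (48.7% of all genes) and 4 in the full-length line (26.4%). Relative to wild type, 4 members were called in the rescue (10.4% of all genes) and 5 in the full-length line (19.1%). The panel's wild-type and knockout libraries have column headings of another form (with Ebdiff and day0) than its construct lines, and were shallower. In the panel, an effect of the rescue or of S12N therefore cannot be told apart from a difference between these series of libraries.

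Bmi1 had 7.33, 6.94 and 7.32 CPM in rescue cells, far below every knockout library (log2 fold change rescue over knockout -2.62 ± 0.11, adjusted p = 1.25e-15) and within the wild-type range. Rescue over wild type came to -0.22 ± 0.14 (0.389, 95% interval -0.51 to 0.08). In full-length cells Bmi1 had 19.6, 23.5 and 20.2 CPM, between the knockout and wild-type libraries, with log2 fold changes of -1.25 ± 0.11 over the knockout (4.71e-13) and 0.88 ± 0.12 over wild type (4.37e-07). Cbx8 had 0.535, 0.824 and 0.556 CPM in rescue cells (-2.63 ± 0.32 over the knockout, 1.61e-07), and its difference from wild type, -0.17, carries a counting interval of -0.97 to 0.68. In full-length cells Cbx8 had 3.05, 2.36 and 1.56 CPM. This was below the knockout (-1.06 ± 0.29, 0.00434), though not without knockout replicate 2 (-0.68, 0.165), and above wild type (1.46, counting interval 0.89 to 2.18, 0.00382), though not without full-length replicate 1 (1.17, 0.0558).

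Cbx2 had 27.1, 26.2 and 29.3 CPM in rescue cells, below the knockout (log2 fold change -1.13 ± 0.09, adjusted p = 1.59e-10) and below wild type too (-0.44 ± 0.10, 0.00311). In full-length cells it had 48.0, 41.4 and 42.5 CPM, below the knockout (-0.90 ± 0.08, 2.97e-13) and below wild type (-0.23 ± 0.08, 0.0331). The last call was lost without wild-type replicate 1, 2 or 3 or full-length replicate 2 or 3 (-0.18 to -0.25, 0.0523 to 0.169). Pcgf2 averaged 91.3 ± 4.68 CPM in rescue cells and 108 ± 6.99 CPM in full-length cells, and rose over the knockout in the full-length line (0.29 ± 0.07, 0.000649) but missed the threshold in the rescue (0.18 ± 0.08, 0.0578). Relative to wild type Pcgf2 stayed lower in full-length cells (-0.25 ± 0.06, 0.00394). In the rescue it also passed (-0.25 ± 0.08, 0.0406), though not without rescue replicate 2 or 3 or wild-type replicate 1 or 2 (-0.19 to -0.23, 0.105 to 0.202).

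Cbx7 had 196, 185 and 194 CPM in rescue cells, with a log2 difference of 0.00 from the knockout (95% interval -0.12 to 0.12), and was below wild type (log2 fold change -0.25 ± 0.06, adjusted p = 0.00444). In full-length cells it averaged 218 CPM and was below wild type (-0.16 ± 0.05, 0.0188), though not without wild-type replicate 1 or 2 or full-length replicate 2 (-0.13 to -0.17, 0.0587 to 0.158). Pcgf6 rose over the knockout in the rescue (0.28 ± 0.07, 0.000871) and had a log2 difference of 0.20 ± 0.08 in the full-length line (0.0587), called without full-length replicate 3 (0.24, 0.0354). Ring1 averaged 12 ± 1.52 CPM in rescue cells, 9.54 ± 1.66 CPM in knockout cells and 8.73 ± 1.25 CPM in wild type. Its rise over wild type (0.45 ± 0.14, 0.04) was lost without rescue replicate 1 or 2 or wild-type replicate 1 or 3 (0.36 to 0.45, 0.0972 to 0.164). Its rise over the knockout (0.33 ± 0.14, 0.0475) was lost without rescue replicate 1 or 2 or knockout replicate 1 or 3 (0.24 to 0.33, 0.0846 to 0.193). The 9 primitive endoderm genes were lower in the rescue than in the knockout as well (sums of 144 to 173 CPM in the rescue), and in the full-length line (547 to 604 CPM), with the same limit as above. The trophoblast list did not follow. Of 3 tested trophoblast markers, 2 were higher and 0 lower in the rescue than in the knockout, and likewise than in wild type (76.9 to 130 CPM in the rescue). In full-length cells 0 of 3 were called against the knockout and 3 were higher than in wild type (79.6 to 96.7 CPM).

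**Figure D2:**
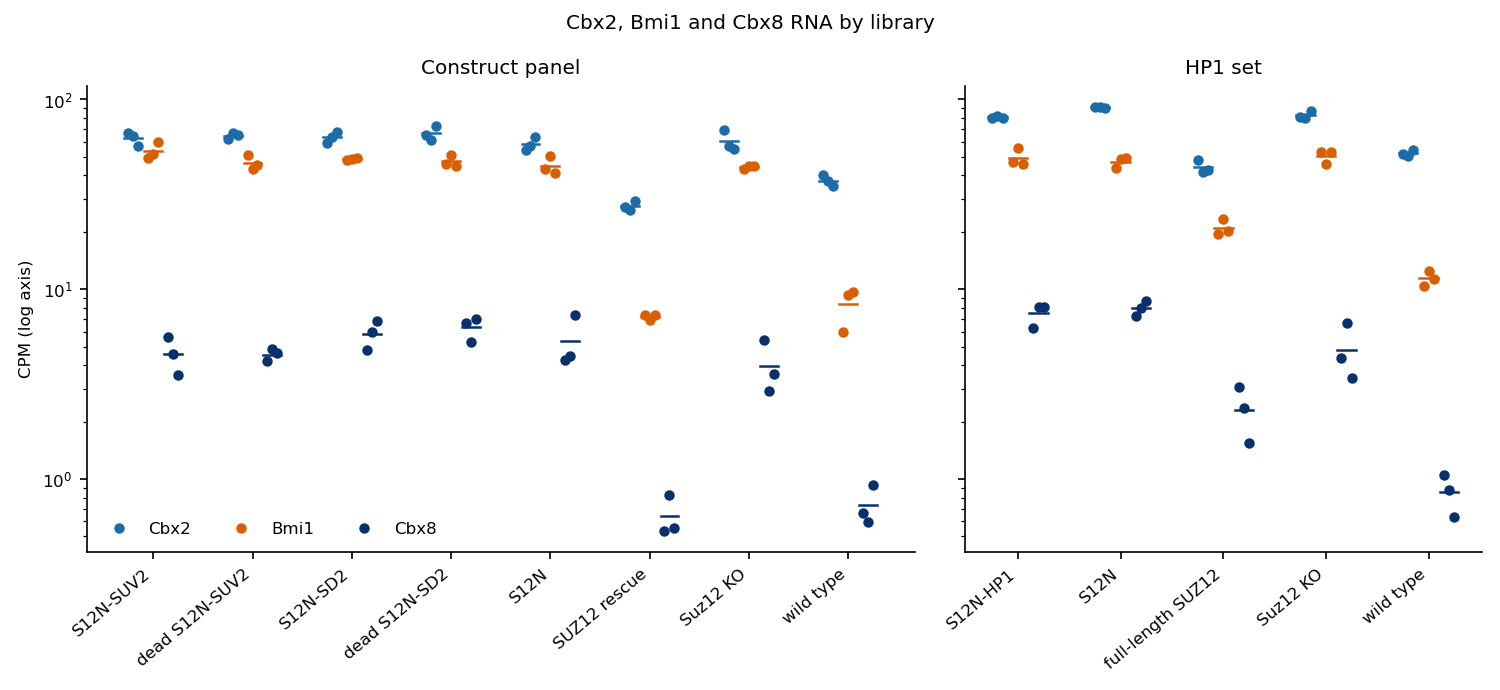
Level of Cbx2, Bmi1 and Cbx8 in CPM (log axis) in every library of the construct panel (left) and HP1 set (right). Points are libraries and lines are group means. Bmi1 lies between 40.9 and 59.5 CPM in panel cells without full SUZ12 and between 5.96 and 9.72 CPM in rescue and wild-type cells, and full-length cells of the HP1 set fall between knockout and wild type.

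The plot of levels by library also shows the S12N lines, which ask whether the PRC2-less SUZ12 fragment, alone or fused to another domain, changes these genes. No member was called for S12N over the knockout in the panel (3.81% of all genes) or the HP1 set (1.89%), in edgeR. The panel comparison carries the limit on series of libraries given for the rescue. Bmi1 had 43.2, 50.4 and 40.9 CPM in panel S12N cells, with a log2 difference from the knockout of 0.02 and a 95% interval of -0.18 to 0.23. Cbx2 differed by -0.06 (-0.24 to 0.12) and Cbx8 by 0.43 (-0.05 to 0.91). In the HP1 set Bmi1 differed by -0.09 (-0.29 to 0.11), Cbx8 by 0.64 (0.12 to 1.16, adjusted p = 0.23) and Pcgf2 by 0.21 ± 0.07 (0.0923). At an unadjusted p of 0.05, 0 members passed in the panel and 2 in the HP1 set, and DESeq2 called 0 and 1, the last being Pcgf2 in the HP1 set (0.20, 0.0489).

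In these 2 sets Bmi1, Cbx8 and Cbx2 missed the threshold in every comparison of a fusion. S12N-SUV2 over its dead version called 1 member (22.6% of all genes), Rnf2, with 302, 305 and 325 CPM in S12N-SUV2 cells and 251, 246 and 260 CPM in cells with the dead version (log2 fold change 0.30 ± 0.05, adjusted p = 9.65e-05). Bmi1 had 49.2, 51.4 and 59.5 CPM in S12N-SUV2 cells, against 50.8, 43.3 and 45.4 CPM with the dead version (0.20 ± 0.09, 0.13, interval 0.01 to 0.39), and Cbx8 differed by 0.02 (-0.40 to 0.43). In these 6 libraries 8 primitive endoderm genes were lower with S12N-SUV2 (337 to 371 CPM, against 1080 to 1420 CPM with the dead version), and their part in the change of Rnf2 was not tested. The dead version over S12N called 3 members (21% of all genes): Cbx7 fell (-0.22 ± 0.06, 0.00653), and Pcgf6 (0.20 ± 0.06, 0.0293) and Rnf2 (0.17 ± 0.05, 0.0198) rose. Pcgf6 was lost when any of 5 of the 6 libraries was left out, S12N replicate 3 being the exception (0.17 to 0.21, 0.0503 to 0.108), and Rnf2 without dead-version replicate 3 or S12N replicate 2 or 3 (0.15 to 0.16, 0.0562 to 0.0898). In these libraries 9 of 9 primitive endoderm genes were higher with the dead version (1080 to 1420 CPM, against 478 to 898 CPM with S12N), and their part was not tested.

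S12N-SD2 over its dead version also called 1 member (18.0% of all genes). This was Cbx7, with 148, 163 and 153 CPM in S12N-SD2 cells and 176, 201 and 172 CPM with the dead version (log2 fold change -0.24 ± 0.06, adjusted p = 0.00475), lost without dead-version replicate 2 (-0.17, 0.0559). Bmi1 differed by 0.04 (95% interval -0.16 to 0.23), Cbx2 by -0.07 (-0.25 to 0.10) and Cbx8 by -0.11 (-0.52 to 0.30). Dead S12N-SD2 over S12N called Pcgf6 (13.1% of all genes; 0.19 ± 0.06, 0.0459), lost without S12N replicate 1 or 2 or dead-version replicate 1 or 3 (0.15 to 0.20, 0.093 to 0.193). S12N-HP1 over S12N called Cbx7 (6.97% of all genes), with 203, 177 and 198 CPM in S12N-HP1 cells and a mean of 216 CPM in S12N cells (-0.17 ± 0.05, 0.0318), lost without S12N-HP1 replicate 2 (-0.11, 0.307) or S12N replicate 1 or 3 (-0.14 and -0.17, 0.201 and 0.105). There 7 primitive endoderm genes were higher with S12N-HP1 (1340 to 2220 CPM, against 1050 to 1170 CPM with S12N). Of the 7 stem cell markers, 6 were lower and 0 higher (4580 to 4860 CPM, against 5160 to 5280 CPM with S12N). The part of these lists in the change of Cbx7 was not tested. Bmi1 had 46.9, 55.3 and 45.9 CPM in S12N-HP1 cells and differed from S12N by 0.07 (-0.12 to 0.27), so the HP1a chromodomain gave no detectable change of Bmi1 at this precision.

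In the RBBP5 background the fusions were set against RS. Under DMSO the S12N-SUV2 line over RS called 6 members (48.7% of all genes), and the S12N-SD2 line over RS called 2 (28.0%). Cbx7 was higher in both fusion lines. It had 170, 171 and 181 CPM in the S12N-SUV2 line, against 137, 135 and 137 CPM in RS (log2 fold change 0.35 ± 0.03, adjusted p = 2.89e-12), and 261, 265 and 264 CPM in the S12N-SD2 line, against 179, 185 and 171 CPM in RS (0.56 ± 0.08, 3.8e-05). Bmi1 missed the threshold in both, with 41.3, 45.6 and 40.5 CPM in the S12N-SUV2 line (0.11 ± 0.05, 0.0671, or 0.15 and 0.0261 without its replicate 3) and 48.8, 47.4 and 46.5 CPM in the S12N-SD2 line (0.02 ± 0.07, 0.87, interval -0.13 to 0.17).

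In the S12N-SUV2 line Cbx8 was below RS, at 5.25, 5.82 and 4.92 CPM (log2 fold change -0.49 ± 0.11, adjusted p = 0.000537), though still far above the R line. Pcgf2 (0.33 ± 0.03, 1.9e-09), Pcgf6 (0.23 ± 0.03, 1.5e-06) and Rnf2 (0.29 ± 0.03, 1.45e-10) were higher than in RS, and Ring1 was lower (-0.42 ± 0.13, 0.00763). So Pcgf2, Pcgf6 and Cbx7, which RS lowered relative to R, averaged 89.9, 111 and 174 CPM in this line, against 71.8, 94.4 and 136 CPM in RS and 92.5, 112 and 184 CPM in R. Pcgf1, which was also lower in RS than in R, missed the threshold over RS in this line. Its summed counts were 395 in this line, 370 in RS and 518 in R. In the S12N-SD2 line Cbx2 rose (0.33 ± 0.12, 0.0424), a call lost when any of the 6 libraries was left out (0.29 to 0.37, 0.0572 to 0.134) and with the replicate number as a block (0.33, 0.0502). Cbx8 averaged 5.37 ± 0.25 CPM in the S12N-SD2 line and 6.59 ± 0.484 CPM in RS (-0.30 ± 0.12, 0.0805). The 9 primitive endoderm genes were lower in both fusion lines than in RS (225 to 250 CPM and 622 to 635 CPM in the SUV2 and SD2 fusion lines), and their part was not tested. Under dTAG13 the S12N-SUV2 line over RS called 8 members (47.6% of all genes) and the S12N-SD2 line over RS 3 (34.0%), among them Bmi1, which had 45.5, 43.7 and 41.6 CPM in the S12N-SD2 line and 52.5, 54.9 and 52 CPM in RS (-0.29 ± 0.07, 0.00471).

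RBBP5 degradation was tested as dTAG13 over DMSO in each line, a change of 24 h compared with the lasting absence of SUZ12. Rnf2, Pcgf6 and Cbx2 fell with dTAG13 in all 6 comparisons, and Ring1 fell in 5, with R and RS entering once in each set. In the SUV2 set 8 members were called in the fusion line (52.8% of all genes), 6 in RS (48.3%) and 8 in R (51.6%). In the SD2 set 4 were called in the fusion line (41.5%), 4 in RS (38.2%) and 7 in R (41.8%). The SD2 labels do not say that its replicates are separate cultures, so its p-values measure only the spread between these libraries. Marker lists moved with dTAG13 too. Of 7 stem cell markers, 5 were lower in R and 6 in RS of the SUV2 set, with sums of 4410 to 4560 CPM under dTAG13 and 4740 to 4840 CPM under DMSO in R, and 4190 to 4300 CPM under dTAG13 and 4540 to 4730 CPM under DMSO in RS. Between 0 and 2 were lower in the other 4 comparisons. The neural and trophoblast sums under dTAG13 lay below those under DMSO in all 6, with neural sums of 148 to 152 CPM under dTAG13 and 218 to 226 CPM under DMSO in RS of the SUV2 set, and trophoblast sums of 101 to 113 CPM under dTAG13 and 164 to 175 CPM under DMSO in RS of the SD2 set. The mesoderm sums lay below those under DMSO in 5, RS of the SUV2 set being the exception, and the fibroblast sums in the 4 comparisons without SUZ12. Single markers went against these sums. In R of the SUV2 set 3 of 5 neural markers were higher and 2 lower, and in R of the SD2 set 1 was higher and 3 lower. Of 4 trophoblast markers, 1 was higher and 2 lower in R and in RS of the SUV2 set. In that RS line 1 fibroblast marker was higher and 2 lower. Primitive endoderm sums were 130 to 154 CPM under dTAG13 and 86.2 to 97.4 CPM under DMSO in R of the SUV2 set, and 175 to 309 CPM under dTAG13 and 121 to 134 CPM under DMSO in R of the SD2 set. The part of these lists in the changes below was not tested.

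Bmi1 rose with dTAG13 in the RS line of the SUV2 set, with 50.0, 47 and 46.6 CPM under dTAG13 and 38.3, 40 and 39.7 CPM under DMSO (log2 fold change 0.28 ± 0.05, adjusted p = 1.03e-05). In the R lines, where SUZ12 is present, it had 8.28, 8.28 and 9.36 CPM under dTAG13 and 6.34, 7.28 and 6.81 CPM under DMSO in the SUV2 set (0.34 ± 0.10, 0.00362). It had 13.2, 12.5 and 9.93 CPM under dTAG13 and 8.99, 10.3 and 9.59 CPM under DMSO in the SD2 set (0.32 ± 0.09, 0.00975), groups that overlap, and the call was lost without DMSO replicate 1 or dTAG13 replicate 1 (0.27 and 0.24, 0.0507 and 0.0594). Bmi1 missed the threshold in the other 3 comparisons. In RS of the SD2 set it had 52.5, 54.9 and 52 CPM under dTAG13 and 45.6, 47 and 48.0 CPM under DMSO (0.18 ± 0.07, 0.052), a difference that DESeq2 called (0.19, 0.0145), as did edgeR with DESeq2's size factors (0.19, 0.0428). In the SUV2 fusion line it had 44.1, 44.9 and 47.8 CPM under dTAG13 and 41.3, 45.6 and 40.5 CPM under DMSO (0.11 ± 0.05, 0.0651, or 0.15 and 0.0156 without DMSO replicate 2). In the SD2 fusion line the sign was the other, with 45.5, 43.7 and 41.6 CPM under dTAG13 and 48.8, 47.4 and 46.5 CPM under DMSO (-0.13 ± 0.07, 0.173). Cbx8 in the R line of the SUV2 set had 0.848, 0.965 and 0.751 CPM under dTAG13 and 0.599, 0.206 and 0.270 CPM under DMSO (1.24, counting interval 0.48 to 2.04, 0.00324). Both genes thus stayed many times below their RS level when RBBP5 alone was targeted. In the R line of the SD2 set Cbx8 differed by 0.06 ± 0.25 (0.89, interval -0.47 to 0.60). Small rises of Cbx8 in RS (0.28 ± 0.10, 0.0228) and the fusion line (0.36 ± 0.12, 0.00914) of the SUV2 set missed the threshold in DESeq2 (0.142 and 0.0661). The rise in RS was also lost without DMSO replicate 1 or 3 or dTAG13 replicate 2 or 3 (0.20 to 0.26, 0.0672 to 0.133), and that in the fusion line without DMSO replicate 3 (0.29, 0.0688).

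Rnf2 had 118, 120 and 102 CPM under dTAG13 and 150, 139 and 151 CPM under DMSO in the R line of the SD2 set. Its log2 fold changes were -0.18 ± 0.03, -0.13 ± 0.03 and -0.28 ± 0.03 in the fusion, RS and R lines of the SUV2 set and -0.26 ± 0.06, -0.28 ± 0.06 and -0.37 ± 0.06 in those of the SD2 set, with adjusted p of at most 0.0014. Its paralog Ring1 had 3.69, 4.87 and 5.15 CPM under dTAG13 and 6.54, 5.47 and 7.78 CPM under DMSO in the R line of the SUV2 set. Ring1 changed by -0.51 ± 0.15, -0.41 ± 0.13 and -0.53 ± 0.14 in the fusion, RS and R lines of the SUV2 set (0.00464, 0.00867 and 0.00254), and by -0.64 ± 0.18, -0.64 ± 0.17 and -0.30 ± 0.19 in those of the SD2 set (0.0103, 0.00544 and 0.222). The RS call of the SUV2 set was lost without dTAG13 replicate 1 (-0.34, 0.0517). Both RING genes thus fell with and without SUZ12, R of the SD2 set being the line where Ring1 missed the threshold.

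Pcgf6 changed by -0.25, -0.24 and -0.19 in the fusion, RS and R lines of the SUV2 set and by -0.19, -0.25 and -0.28 in those of the SD2 set (adjusted p between 1.71e-07 and 0.00627). Cbx2 changed by -0.18, -0.21 and -0.13 in the SUV2 set and by -0.48, -0.35 and -0.35 in the SD2 set, in the same order of lines. Its calls in R of the SUV2 set, R of the SD2 set and RS of the SD2 set were lost without some single libraries: DMSO replicate 3 or dTAG13 replicate 1 or 3 (-0.12 to -0.13, 0.0504 to 0.0581), DMSO replicate 1 or 3 (-0.27 and -0.34, 0.128 and 0.0683), and any of 5 of the 6 libraries, dTAG13 replicate 3 being the exception (-0.31 to -0.37, 0.0505 to 0.097). Pcgf1 was the variant PCGF gene with rises. It was called in the fusion and R lines of the SUV2 set (0.22 and 0.24, 0.0425 and 0.0163) and in R of the SD2 set (0.37 ± 0.12, 0.0201). DESeq2 did not call the first 2 of these (0.196 and 0.134). Leaving out any of the 6 libraries ended the fusion-line call (0.18 to 0.23, 0.0688 to 0.156), and DMSO or dTAG13 replicate 2 the call in R of the SUV2 set (0.16 and 0.20, 0.154 and 0.0753). The SD2-set call was lost without DMSO replicate 2 (0.26, 0.105) or dTAG13 replicate 3 (0.24, 0.0801). Pcgf2 moved by at most 0.16 in any line: its calls in the SUV2 fusion line (0.08 ± 0.03, 0.0307) and R of the SD2 set (-0.16 ± 0.06, 0.0362) had opposite signs. The first was lost without DMSO replicate 1 or 2 or dTAG13 replicate 2 or 3 (0.05 to 0.08, 0.0878 to 0.282), and the second without DMSO replicate 1 or 3 or dTAG13 replicate 2 (-0.11 to -0.15, 0.0781 to 0.173).

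Whether these responses depend on SUZ12 was tested as the difference between the RS and R responses. In the SUV2 set Rnf2 was the 1 member called (19.6% of all genes), its fall being smaller in RS than in R by 0.15 ± 0.04 (log2, adjusted p = 0.00754). In the SD2 set it was Cbx7 (12.1% of all genes), with a difference of 0.45 ± 0.11 (0.0161). Cbx7 had 169, 176 and 132 CPM under dTAG13 and 226, 205 and 226 CPM under DMSO in that R line (-0.46 ± 0.08, 0.000258), and averaged 178 ± 6.18 CPM under dTAG13 and 179 ± 6.89 CPM under DMSO in RS (-0.01 ± 0.08, 0.968). Without R dTAG13 replicate 3, the library with the low normalisation factor, the difference was 0.33 (6.99e-05) and the fall in R -0.34 (8.34e-08). Without that library the changes in R were -0.18 for Cbx2, 0.42 for Bmi1, -0.24 for Pcgf6 and -0.30 for Rnf2, and 6 members were called. In the SUV2 set Cbx7 fell in R (-0.14 ± 0.03, 4.73e-05) and had a difference between RS and R of 0.11 ± 0.04 (0.0557, or 0.12 and 0.034 without RS dTAG13 replicate 1). Cbx7 also fell in the SUV2 fusion line, which lacks full SUZ12, with 157, 161 and 161 CPM under dTAG13 and 170, 171 and 181 CPM under DMSO (-0.13 ± 0.03, 0.000212), and missed the threshold in RS of that set (-0.04 ± 0.03, 0.29) and in the SD2 fusion line (-0.05 ± 0.08, 0.664). For Cbx8 the difference between the RS and R responses of the SUV2 set was -0.96 ± 0.36 (0.0613). It passed without R DMSO replicate 1 (-1.57, 0.0107) or RS DMSO replicate 3 (-1.03, 0.0445). No member was called for the difference between the fusion and RS responses in either set (10.7% and 2.06% of all genes in the SUV2 and SD2 sets, in edgeR). At an unadjusted p of 0.05, 2 and 1 members passed there, and DESeq2 called 0 and 1. The value for Bmi1 was -0.18 ± 0.07 in the SUV2 set (0.0892, or -0.22 and 0.0495 without fusion DMSO replicate 3) and -0.31 ± 0.10 in the SD2 set (0.144).

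**Figure D3:**
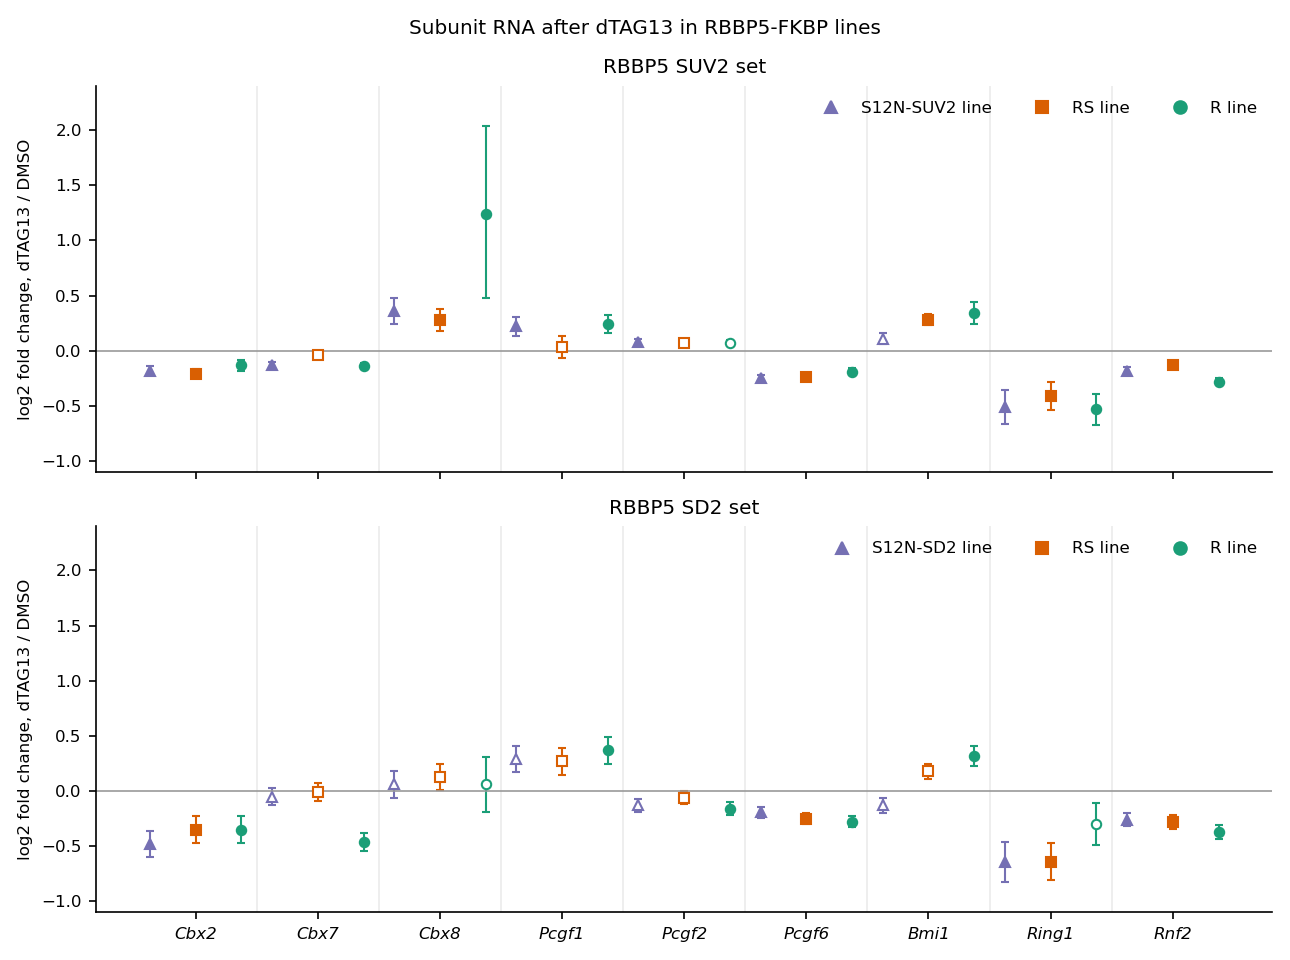
Log2 fold change of each member with dTAG13 over DMSO after 24 h (vertical axes) in the fusion, RS and R lines of the RBBP5 SUV2 set (top) and SD2 set (bottom). Filled symbols passed an adjusted p of 0.05, bars are SE, and the bar of Cbx8 in R of the SUV2 set is a 95% counting interval. Rnf2, Pcgf6, Cbx2 and Ring1 lie below 0 in all 6 comparisons.

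The plot of dTAG13 responses shows changes of at most 0.64 on the log2 scale for members other than Cbx8, against 2.13 to 2.53 for Bmi1 on SUZ12 knockout. The degron line adds time to the loss of SUZ12. Bmi1 and Pcgf6 were called at 24 and 48 h, and Cbx8, Cbx2, Cbx7 and Rnf2 at 48 h. No member was called at 2, 4 or 8 h (0.0%, 0.00713% and 0.0357% of all 14016 genes in edgeR, which called 0, 1 and 5 genes). At an unadjusted p of 0.05, 295, 262 and 885 genes passed at these times, and DESeq2 called 3, 5 and 73. Of the 9 members, 1, 0 and 1 passed unadjusted. At 24 h 2 members were called (34.3% of all genes) and at 48 h 6 (44%).

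Bmi1 had 28.8, 29.2 and 28.2 CPM under DMSO. It had 24.9, 26.6 and 28.1 CPM at 2 h, 30.6, 28.8 and 32.1 CPM at 4 h, 33.3, 37.8 and 41.9 CPM at 8 h, 37.5, 39.3 and 37.5 CPM at 24 h, and 46.7, 41.7 and 46.5 CPM at 48 h. All 8 h libraries lay above all DMSO libraries, with a log2 fold change of 0.39 ± 0.10 that edgeR did not call (adjusted p = 0.259) and DESeq2 did (0.40, 0.0287). Bmi1 then rose by 0.41 ± 0.10 at 24 h (0.00651) and by 0.65 ± 0.10 at 48 h (9.24e-05). Its 48 h mean of 45 ± 2.82 CPM lay near the 44.1 CPM of panel knockout cells. Its DMSO mean of 28.7 ± 0.506 CPM stood above the 8.35 CPM of panel wild type, although these sets were normalised separately.

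Cbx8 had 3.28, 4.06 and 4.17 CPM under DMSO. Its group means were 2.50 ± 0.606 CPM at 2 h, 3.93 ± 0.62 CPM at 4 h and 2.91 ± 0.427 CPM at 8 h, of which the 2 h libraries all lay below DMSO (log2 difference -0.62 ± 0.29, adjusted p = 1.0). At 24 h it had 3.69, 8.80 and 3.52 CPM, and at 48 h 12.5, 11.8 and 12.1 CPM, where all libraries lay well above DMSO (log2 fold change 1.66 ± 0.27, adjusted p = 0.000106). Cbx2 had 30.1, 30.8 and 24.8 CPM under DMSO, 26.6, 19.9 and 36.4 CPM at 24 h and 55.9, 63.3 and 59.7 CPM at 48 h (1.06 ± 0.16, 7.4e-05). At 48 h Cbx2 and Cbx8 thus stood at 2.09 and 3.16 times their DMSO levels.

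Cbx7 averaged 113 ± 3.42 CPM under DMSO and had 79.1, 75.4 and 80.6 CPM at 48 h (log2 fold change -0.52 ± 0.16, adjusted p = 0.0121). Rnf2 averaged 172 ± 7.42 CPM under DMSO and had 131, 119 and 118 CPM at 48 h (-0.49 ± 0.11, 0.00193). Pcgf6 had 74.6, 73.4 and 70.4 CPM under DMSO, 42.6, 46.3 and 55.9 CPM at 24 h (-0.59 ± 0.10, 0.00051) and 57.6, 58.3 and 61.9 CPM at 48 h (-0.30 ± 0.10, 0.0229). The 48 h call of Pcgf6 was lost without DMSO replicate 1 or 2 or 48 h replicate 1 or 2 (-0.27 to -0.30, 0.0567 to 0.0721). Unlike in the knockouts, Pcgf2 did not pass at 48 h, with 34.0 ± 4.58 CPM under DMSO and 34.8 ± 3.04 CPM at 48 h (0.04 ± 0.27, 0.926, interval -0.54 to 0.61). Neither Pcgf1 (-0.25 ± 0.22, 0.371) nor Ring1 (-0.29 ± 0.21, 0.273) passed at that time. The primitive endoderm sum was 58.1 to 83.0 CPM under DMSO and 101 to 111 CPM at 48 h, with 3 of 7 tested genes higher, and a neural list of 5 genes summed to 75.7 to 88.4 CPM under DMSO and 233 to 270 CPM at 48 h. Of the fibroblast, mesoderm and trophoblast lists, 2 of 3 tested markers each were higher and 0 lower. The fibroblast sum was 1.67 to 2.06 CPM under DMSO and 12.1 to 15.2 CPM at 48 h. Of the 7 stem cell markers, 2 were lower and 0 higher. The part of these lists was not tested.

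At 24 h the replicates disagreed for several members, and the sum of the 7 stem cell markers ran between 6270 and 15400 CPM, against 6170 to 7480 CPM under DMSO. Pcgf2 had 17.0, 14.2 and 43.7 CPM, Pcgf1 57, 50.5 and 23.9 CPM, Cbx7 72.4, 71.2 and 121 CPM, and Ring1 15.4, 18.3 and 8.34 CPM. Replicates 1 and 2 stood together and replicate 3 lay on the other side of the DMSO level for Pcgf2, Pcgf1, Cbx7 and Ring1. Leaving out replicates 1 and 2, a choice made after seeing the data, gave 5 called members: Bmi1 (log2 fold change 0.40, adjusted p = 0.0123), Pcgf6 (-0.36, 0.00527), Rnf2 (-0.53, 0.000136), Cbx2 (0.37, 0.0374) and Pcgf2 (0.38, 0.0484), the last 2 with the opposite sign. With 1 library left in the group, its spread was taken to be that of the other groups. Leaving out replicate 3 gave 6 called members, with Pcgf2 at -1.12, Pcgf1 at 0.81, Cbx7 at -0.65, Ring1 at 0.56, Pcgf6 at -0.72 and Bmi1 at 0.41. Bmi1 and Pcgf6 were the members called at 24 h whichever of these libraries were used.

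**Figure D4:**
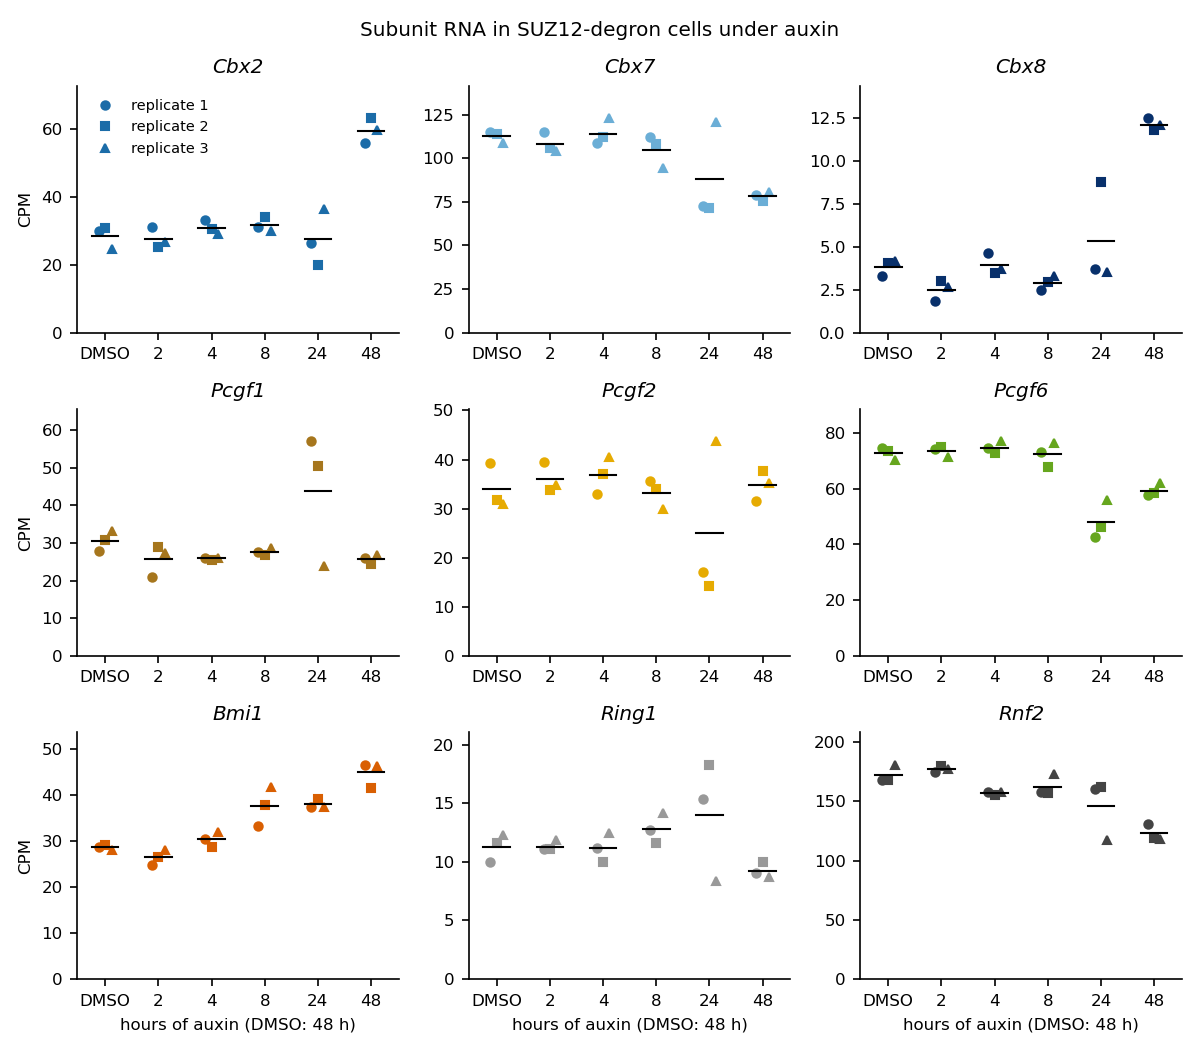
Level of each member in CPM (vertical axes start at 0) in the SUZ12-degron line under DMSO for 48 h and after 2, 4, 8, 24 and 48 h of auxin. Symbols mark replicates 1 to 3 and lines group means. Bmi1 means pass from 37.7 CPM at 8 h to 45 CPM at 48 h, Cbx8 reaches 12.1 CPM at 48 h only, and the 24 h replicates of Pcgf1, Pcgf2, Cbx7 and Ring1 split.

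The time course plot shows the Bmi1 means of 37.7, 38.1 and 45 CPM at 8, 24 and 48 h, the late step of Cbx8 and Cbx2, and the split of the 24 h replicates. Because BMI1 and PCGF2 occupy the same place in canonical PRC1, their RNA was also expressed as the share of Bmi1 in the sum of both, per kilobase of exon. This share was 28.7%, 30% and 30% in panel knockout cells and 3.90%, 5.81% and 7.23% in wild-type cells. It was 30.5 ± 2.52% in knockout and 6.43 ± 0.559% in wild type of the HP1 set, 29.6 ± 0.381% in RS and 5.34 ± 0.278% in R of the SUV2 set, and 32.5 ± 1.45% in RS and 6.81 ± 0.871% in R of the SD2 set (SD, n = 3). The rescue came to 5.70 ± 0.221% and the full-length line to 13 ± 1.59%. S12N and its fusions lay between 26.1% and 34.5% in the panel, HP1 and RBBP5 sets under no treatment or DMSO. In the degron line the share was already 39.5 ± 3.02% under DMSO and came to 36.2% at 2 h, 38.9% at 4 h, 46.5% at 8 h, 56.9 ± 15.1% at 24 h and 49.8 ± 3.62% at 48 h. Bmi1 thus remained the minor partner in every E14 group, and its share separated groups with full SUZ12 from those without in all 4 E14 sets. These shares are a description with no test.

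**Figure D5:**
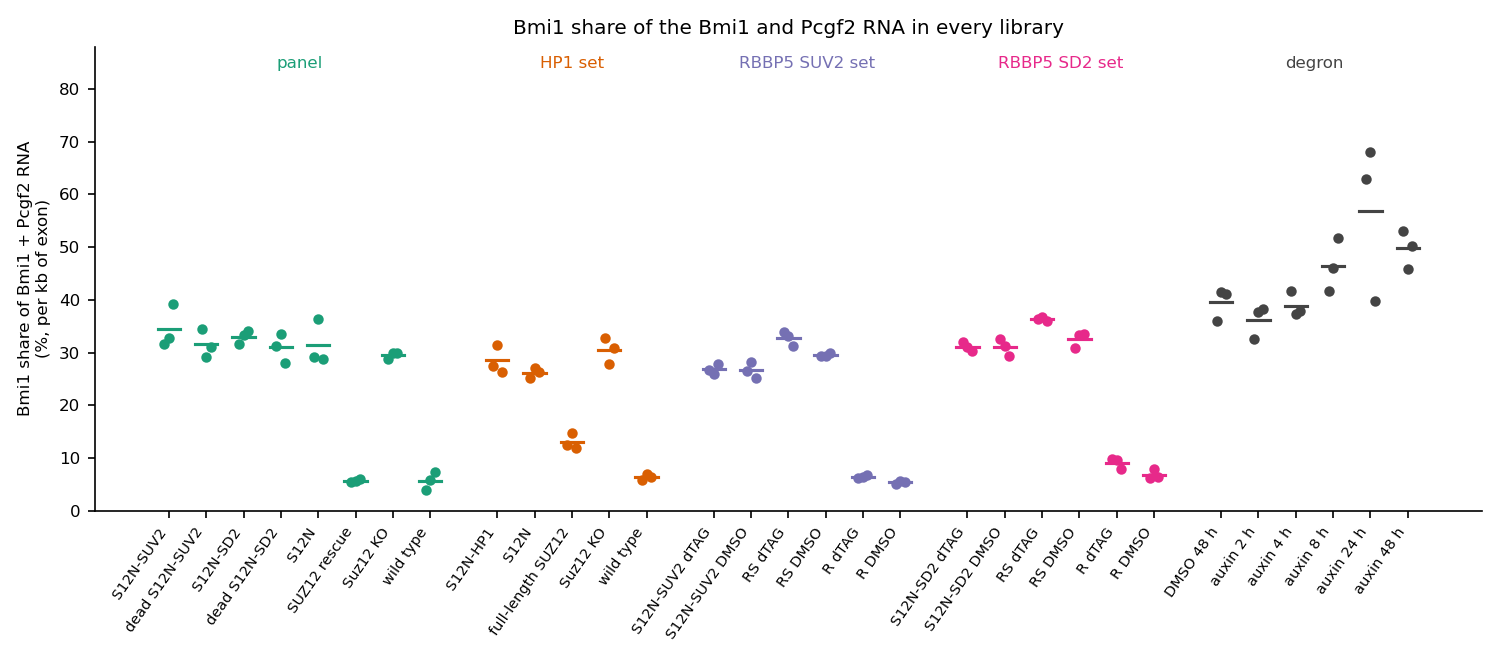
Share of Bmi1 in the summed Bmi1 and Pcgf2 RNA per kb of exon, in percent, in each of the 93 libraries. Points are libraries and lines group means, coloured by data set. Groups with wild-type or full-length SUZ12 lie between 5.34% and 13% in the E14 sets, and the degron line lies at 39.5% under DMSO.

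The plot of the Bmi1 share covers all 31 groups. Of the RNA per kb of all 6 PCGF genes, Bmi1 made up 12.4 ± 0.593% in panel knockout cells and 2.2 ± 0.536% in wild type, and 14.9 ± 1.31% in knockout and 3.02 ± 0.26% in wild type of the HP1 set. In the degron line this share was 8.57 ± 0.164% under DMSO and 14.3 ± 0.88% at 48 h. Ring1 made up 6.67 ± 1.08% of the summed Ring1 and Rnf2 RNA per kb in panel knockout cells and 5.45 ± 0.664% in wild type, and its group means lay between 2.83% and 13.2% over all 31 groups, so Rnf2 was the main RING transcript throughout.

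The other PRC1 genes give the setting for these changes. Of 28 such genes, 8 were higher and 10 lower in panel knockout over wild type, with a median log2 fold change of -0.05 against -0.02 over all genes. The counts were 8 higher and 6 lower in the HP1 set, 13 and 11 for RS over R in the SUV2 set, and 8 and 10 in the SD2 set. Bcorl1, Scml2, Pcgf5 and Phc1 had among the 4 smallest p of the list in at least 1 of these comparisons and are given in all 4, a choice made after their values were seen. Bcorl1, a paralog of the PCGF1 partner BCOR, changed by 1.69 ± 0.17, 1.92 ± 0.16, 2.68 ± 0.08 and 1.69 ± 0.07 in the panel, HP1, SUV2 and SD2 sets. Scml2, a canonical PRC1 accessory gene, changed by 2.23 ± 0.23 in the panel, 2.05 in the HP1 set (counting interval 1.36 to 2.75), 2.64 ± 0.18 in the SUV2 set and 2.32 ± 0.16 in the SD2 set. Pcgf5, a variant PCGF gene, changed by 0.80 ± 0.10, 1.16 ± 0.19, 1.07 ± 0.07 and 1.55 ± 0.11 in the same order, and Phc1, the main polyhomeotic gene of stem cells, by -0.29 ± 0.08, -0.30 ± 0.04, -0.15 ± 0.02 and -0.32 ± 0.08, adjusted p being at most 0.00356 for all of these values. At 48 h of auxin 9 of the 28 were higher and 1 lower (median 0.36 against 0.0), among them Scml2 (2.08 ± 0.35), Yaf2 (1.40), Bcor (1.04) and Phc2 (0.57).

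Across all 31 group means, centred within each data set, Cbx8 and Bmi1 followed each other most closely of the 36 member pairs (Pearson's r = 0.95), with Cbx2 near both (0.83 with Cbx8 and 0.81 with Bmi1). Pcgf2 ran opposite to Bmi1 (-0.68) and Cbx8 (-0.64) and along with Pcgf6 (0.71), and Pcgf6 along with Rnf2 (0.62). Among 11465 genes tested in all sets, those most like Bmi1 were Hoxd13 and Nr2f2 (0.98 each), those most like Cbx8 were Bcorl1 (0.98) and Hoxd13 (0.96), and those most like Cbx2 were Bahd1 and Chst3 (0.92 each). Cbx7 was most like Racgap1 (0.86), Pcgf2 like Klf3 (0.89), Pcgf6 like Smyd5 (0.91), Rnf2 like Mapk6 (0.85) and Ring1 like Prom1 (0.78). These values are descriptions: groups of a set share depth, library preparation and the knockout background.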

How the data were processed

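RNA-seq read counts per gene were deposited by the authors, as merged tables with symbols for the construct panel and the RBBP5 SUV2 set and as 1 table per library with Entrez identifiers, matched to RefSeq symbols, for the other 3 sets. Tables normalised by the authors were not used. Per the submitters' processing notes, reads were mapped to mm10 with STAR 2.4 and counted with HTSeq 0.9.1 (panel and RBBP5 SUV2 set), mapped with HISAT2 2.2.1 and counted with featureCounts 2.0.8 (RBBP5 SD2 set), or mapped with HISAT2 (degron and HP1 sets, counting tool not given in the sources used here). Strand handling was not given in the sources used here. Such differences can shift levels between sets, so no test crossed sets.

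Each set was fitted by itself in R 4.3.3 with edgeR 4.0.16: low counts were filtered with filterByExpr, libraries were scaled by TMM, and the quasi-likelihood test was applied to every gene, with Benjamini-Hochberg adjustment over all genes tested (16230 in the panel, 15757 and 15211 in the RBBP5 SUV2 and SD2 sets, 14016 in the degron set, 14026 in the HP1 set) and a threshold of 0.05. All 9 members passed the filter in all 5 fits. Values after ± are SE for log2 fold changes and SD for levels. Where a group held under 30 counts, a 95% exact conditional counting interval replaces the SE, and it covers counting error only. CPM use TMM-scaled library sizes, and levels per kb use the exon union of GENCODE M21, which may differ from the authors' annotation. Alternatives were DESeq2 size factors, no filter, DESeq2 1.42.0, a replicate block and leaving out each library. The fits were checked on simulated data.

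The panel's wild-type and knockout libraries were shallower (8799103 to 10694811 counts) than its other lines (17041397 to 29967549). Same-numbered libraries deviated together in panel knockout and wild type (r = 0.28, 0.21 and 0.21), the only comparison where no pair lay near 0 or below it. A block changed no call there. Some pairs did so elsewhere, with r of 0.01, 0.44 and 0.25 for dead S12N-SD2 over S12N and 0.28, 0.01 and 0.27 for degron 8 h. The extract protocols name biological triplicates except in the RBBP5 SD2 set. Members and lists were chosen with earlier results of these data known. All members are named, other PRC1 genes by up to 4 smallest p per comparison, and like genes by up to 2 highest correlations per member over 31 group means of log2 (CPM + 0.5). A KDM4 inhibitor experiment was not analysed here. Some results are not reported here.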

Additional observations from a re-analysis of the deposited data

Results flagged for a closer look

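The response of Rnf2 to dTAG13 differed between RS and R in the RBBP5 SUV2 set by 0.15 on the log2 scale, by a test of the difference itself (edgeR, adjusted p = 0.00754). Rnf2 fell in both lines, less in RS than in R. The response of Cbx7 differed between RS and R in the RBBP5 SD2 set by 0.45 (adjusted p = 0.0161). Cbx7 fell in R and missed the threshold in RS, and R dTAG13 replicate 3, whose normalisation factor was low, held the lowest Cbx7 of the 12 libraries of these lines. Without that library the difference was 0.33 (adjusted p = 6.99e-05).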

How the results depend on the processing

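Of 306 member changes over 34 comparisons, 118 were called and 86 of these were called under every setting tried. Counts of called members moved by over 1.5 times as follows, and the cause was not tested. DESeq2 gave 5 against 8 for dTAG13 in the RBBP5 SUV2 fusion line, and 1 against 0 for degron 8 h, for S12N over knockout in the HP1 set and for the fusion minus RS response of the SD2 set. DESeq2 size factors gave 0 against 1 for dead S12N-SD2 over S12N and 2 against 1 for the RS minus R response of the SUV2 set. Without a filter, dead S12N-SUV2 over S12N gave 1 against 3 and dead S12N-SD2 over S12N 0 against 1. The replicate block gave 1 against 2 for the SD2 fusion over RS in DMSO, where Cbx2 had an adjusted p of 0.0502 (0.0424 without the block). It also called Ring1 in dead S12N-SUV2 over S12N (-0.29, 0.0484 against 0.11) and changed no other call of a member.

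Leaving out 1 library at a time gave 2 to 3 for the rescue over wild type (4 with all), 1 to 2 for dead S12N-SUV2 over S12N (3), 0 to 1 for S12N-SD2 over its dead version, dead S12N-SD2 over S12N and S12N-HP1 over S12N (1 each), 1 to 2 for the RS minus R response of the SUV2 set (1), 0 to 1 for its fusion minus RS response (0), 1 to 2 for the SD2 fusion over RS in DMSO (2), 4 to 6 for dTAG13 in R of the SD2 set (7), 2 to 6 for degron 24 h (2) and 3 to 4 for full-length SUZ12 over wild type (5). Without both 24 h replicates 1 and 2, an alternative added after seeing the data, 5 members were called, and Cbx2 (0.37) and Pcgf2 (0.38) reversed. Depth limits Cbx8 most: it held 20 to 27 counts in 3 control groups.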
